A study of Mus musculus with 188 samples.

Results

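Brain slices that received no toxin and no scavenger protein were compared between 2 rounds of culture. The library names carry E1 or E2, called round 1 and round 2 here. The labels do not spell these letters out. All control libraries of batches 2 and 3 with an assigned time were taken, which gave 5 libraries of round 2 (3 at 24 h and 2 at 48 h) and 14 of round 1 (7 at 24 h and 7 at 48 h), out of 188 libraries in the series. Every slice came from wild-type C57BL/6J mice of both sexes aged 6 to 8 weeks, was cut coronally at 150 µm from a perfused brain, and was cultured on a membrane insert. Serum-containing medium was replaced by serum-free medium on day 4, and the experiments began on day 7. The control arm was 0 µM for 24 h or 48 h. The batch tag of the labels put 12 round 1 and 3 round 2 libraries in batch 2, and 2 of each round in batch 3. The letter in the library names gave 7 female and 7 male libraries in round 1, and 2 female and 3 male libraries in round 2. The labels do not say what else differed between the rounds, so animals, cutting position, medium lots and handling cannot be told apart. The labels do not say which libraries share an animal, so the p-values measure the spread between these libraries only.

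An organotypic slice keeps neurons, glia and vessels in place after the blood supply is lost. Cut axons die back, microglia and astrocytes respond to the injury, and neural progenitors and glia can divide. The mix of cells in a slice depends on the level of the brain it was cut from, because nuclei such as those of the hypothalamus, the ventricular lining and the choroid plexus occur at some coronal levels and not at others. Growth factor receptors signal through the ERK kinase cascade, which induces its own feedback inhibitors of the Sprouty and dual-specificity phosphatase families and the ETS factors Etv4 and Etv5.

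The deposited values were read counts per gene, summing to 26537187 to 51447782 per library. Relative levels in CPM (counts scaled to a common library size) were scaled by TMM, and genes were tested with edgeR's quasi-likelihood F test with time and batch as terms and Benjamini-Hochberg adjustment at 0.05. All changes below are log2(round 2 / round 1). The slices carried brain markers in all 19 libraries, since Gfap, Mbp and Aqp4 were above 300 CPM in each of them. Hemoglobin genes of red blood cells were at or near 0 (at most 0.132 CPM summed over 7 genes). The 50 most abundant genes took 13.1% to 16.9% of counts in round 1 and 16.6% to 19.5% in round 2. On the first principal component, which held 42.1% of the variance, round 1 ran from -35.4 to 18. Round 2 stood at 27.4 to 40.8 except for 24 h replicate 7, which at 3.47 lay inside the range of round 1.

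**Figure D1:**
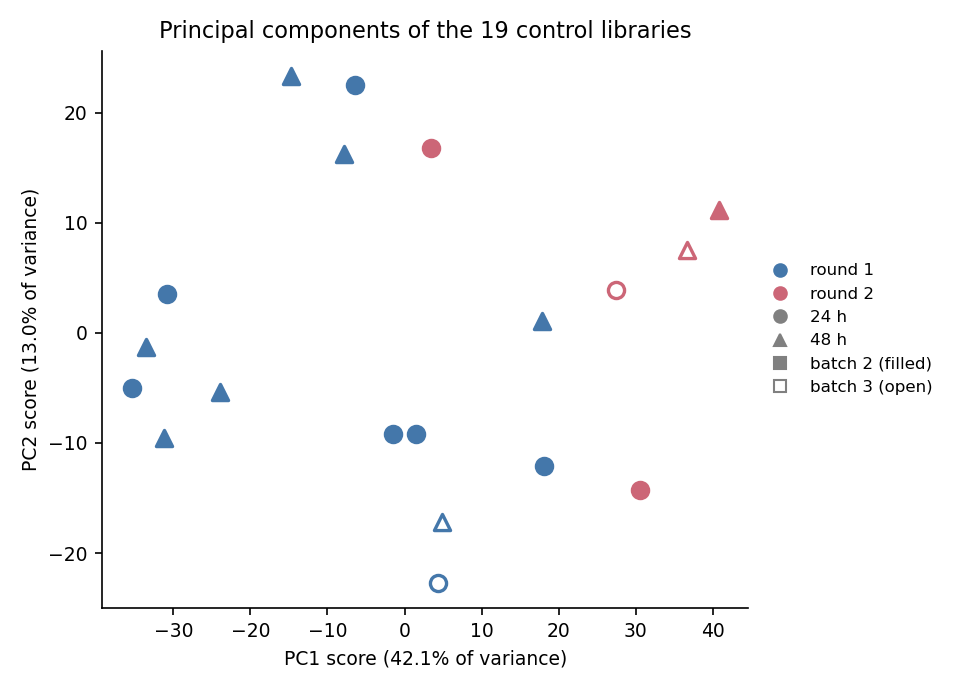
Scores of the 19 control libraries on the first 2 principal components of log2 CPM (1000 most variable genes), 1 point per library, with color for round, shape for time and filled or open symbols for batch. Of the 5 round 2 libraries, 4 lie to the right of every round 1 library on the first component, and 24 h replicate 7 lies within the round 1 spread.

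Between the rounds, 7753 of 16549 genes passed the test. Of all genes tested, 23.5% (3889) were higher in round 2 and 23.3% (3864) were lower, and the median change over all genes was 0.016. Most differences were small: 4879 of the called genes (62.9%) changed by less than 0.5, and 84 changed by at least 2 (37 higher, 47 lower). Values of the 2 rounds did not overlap at all, with every round 2 library above, for 367 genes (2.22%), and with every round 2 library below for 921 (5.57%). These shares are the background for each gene list below. In bulk RNA, fewer cells of a kind and less RNA per cell cannot be told apart. Within batch 2, 5688 of 16855 genes passed the test, and within batch 3, with 2 libraries a round, 4682 of 15760. By their letter, both round 1 libraries of batch 3 were female and both round 2 libraries male. In every value for batch 3 alone, round and sex therefore cannot be told apart. Without 48 h replicate 7 of round 2 the count fell to 4613, and the values without it are given wherever they changed a list's count of calls by over 1.5 times.

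Among called genes averaging 1 CPM or more, the 12 that fell most were, but for Fam110c, lower in every round 2 library than in any of round 1. F2rl1, which encodes protease-activated receptor PAR2, measured 3.61 to 15.6 CPM (median 8.13) in round 1. In round 2 it measured 0.907, 0.771 and 0.61 CPM at 24 h and 0.286 and 0.443 CPM at 48 h (replicates 7, 8 and 11, then 7 and 9, an order kept throughout). All 5 libraries lay below the lowest of round 1, a change of -3.76 ± 0.44 (SE), edgeR adjusted p = 1.37e-05. Its relative F2rl2, the thrombin-responsive receptor PAR3, changed by -2.93 ± 0.47 (SE), from 1.34 to 6.16 CPM (median 2.31) to 0.0382 to 0.605 CPM (median 0.277) without overlap. Other genes of this group were Car3 (carbonic anhydrase, -3.22), Slc30a2 (zinc transporter, -3.27), Sele (E-selectin, -3.08), Aldh1a3 (retinoic acid synthesis, -2.86), Fndc3c1 (-3.6), Tmc3 (-3.16), Shisa3 (-2.64) and Fam110c (-2.59).

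Dhh, the Desert hedgehog ligand, had the smallest error among these 12. It measured 16.9 to 46.1 CPM (median 30.5) in round 1. Round 2 gave 4.62, 3.56 and 4.27 CPM at 24 h and 2.53 and 4.43 CPM at 48 h. The groups did not overlap, and the change was -2.91 ± 0.27 (SE), edgeR adjusted p = 2.15e-06. Batch 2 alone gave -2.99 and batch 3 alone -2.73. The annotated spans of Fndc3c1, Tmc3, F2rl2, Dhh and Shisa3, introns included, each overlap that of a gene on the other strand. Exons were not compared, and the strand setting of the counting is not given in the sources used here. Whether reads of the partner entered their counts is therefore not known.

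Matrix genes of the injury scar were split. Adamts14, a protease that trims procollagen, measured 36.7 to 148 CPM (median 77.4) in round 1. It gave 12.8, 10.7 and 9.73 CPM at 24 h and 4.74 and 9.11 CPM at 48 h in round 2, which lay below round 1 in every library (-3.03 ± 0.38 (SE), edgeR adjusted p = 2.24e-05). Tnc, which encodes tenascin-C, an injury-induced matrix glycoprotein, fell without overlap from 253 to 1086 CPM (median 612) to 73.8 to 184 CPM (median 124), a change of -2.28 ± 0.36 (SE), edgeR adjusted p = 1.51e-04. In the list of 13 matrix and scar genes, 5 were higher, 2 were lower and the median was 0.34. Without 24 h replicate 8 of round 2, 3 were higher, and without 48 h replicate 7, 2 were. Batch 3 alone gave a median of -0.35, opposite in sign.

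**Figure D2:**
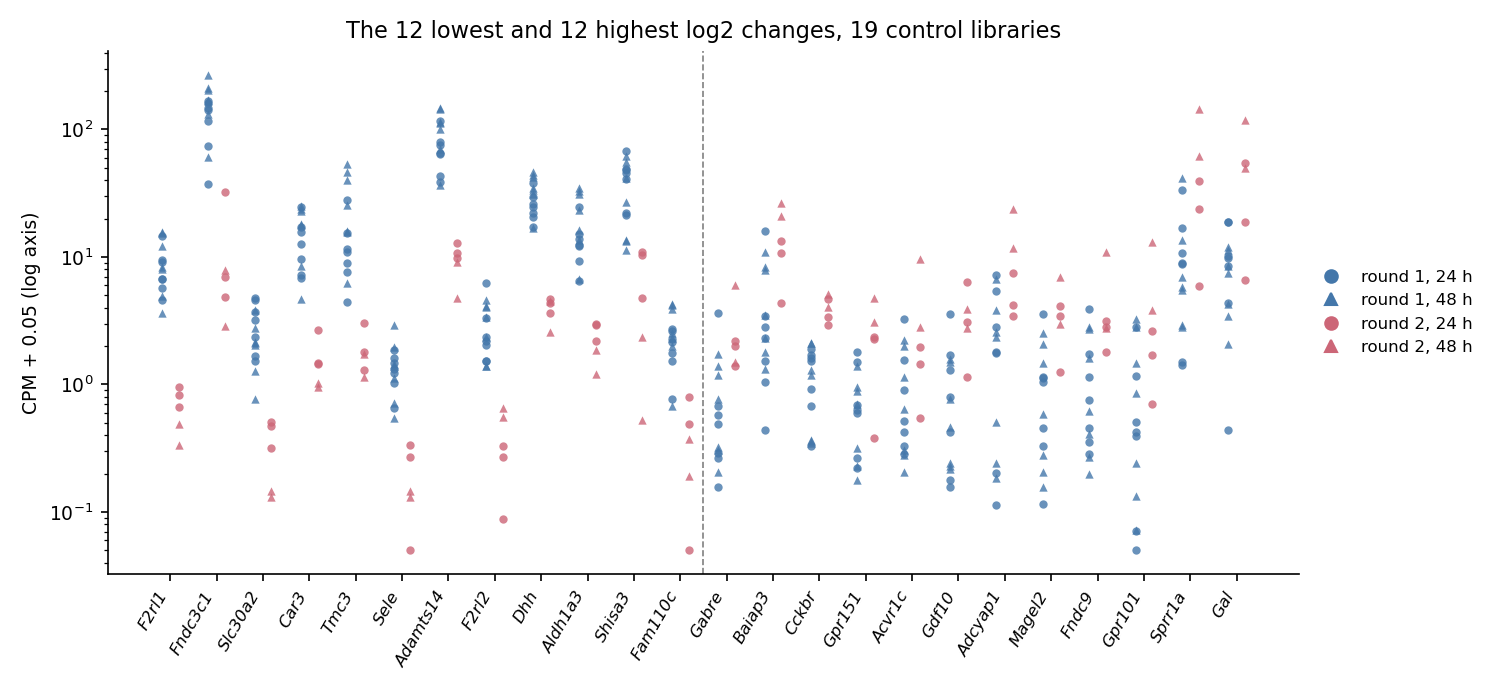
CPM plus 0.05 on a log axis in each of the 19 control libraries for the 12 called genes (mean of at least 1 CPM) with the lowest (left of the dashed line) and the 12 with the highest log2 change, with round 1 in blue, round 2 in red, circles for 24 h and triangles for 48 h. The round 2 points lie below all round 1 points for 11 of the 12 genes on the left, while on the right the rounds are fully apart for Cckbr only.

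Feedback inhibitors and targets of ERK signaling were lower as a group. Of 10 genes tested, 8 were lower, none was higher, and 6 did not overlap between rounds. The median was -0.66, with -0.62 in batch 2 and -0.77 in batch 3, and 6 to 8 genes passed when any 1 library was left out. Summed over the list, round 1 measured 679.9 to 909 CPM (median 759.6). Round 2 measured 496, 489.6 and 479 CPM at 24 h and 521 and 485 CPM at 48 h, all below round 1.

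Spry4, a Sprouty inhibitor of receptor tyrosine kinase signaling, gave 32.1 to 62.7 CPM (median 46.9) in round 1. Its round 2 values were 15.9, 17.8 and 14.8 CPM at 24 h and 13.6 and 16.8 CPM at 48 h. The rounds were apart in every library (-1.55 ± 0.16 (SE), edgeR adjusted p = 4.09e-06). Etv4 changed by -1.34 ± 0.11 (SE), edgeR adjusted p = 1.39e-06, and its close relative Etv5 by -1.32 ± 0.12 (SE), edgeR adjusted p = 1.88e-06. Spry2 was lower by a smaller amount, at -0.77 ± 0.12 (SE), again without overlap. Egr1, an immediate early gene of the same cascade, changed by -0.69 ± 0.15 (SE), edgeR adjusted p = 0.00193, whereas Fos was slightly higher (0.26 ± 0.08 (SE), edgeR adjusted p = 0.0112). Over the 10 immediate early genes, 4 were higher and 3 lower, with a median of 0.05, and without 48 h replicate 7 of round 2 only 1 was lower.

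Genes of mitosis were lower without exception, and those of DNA replication in part. All 12 mitosis genes were lower in round 2, none overlapped between the rounds, and all 12 stayed lower when any 1 library was left out, in batch 2 alone and in batch 3 alone. Their median was -0.91 (-0.97 in batch 2, -0.81 in batch 3). Summed over the list, round 1 held 732 to 1244 CPM. The round 2 libraries held 494, 456 and 507 CPM at 24 h and 543 and 546 CPM at 48 h.

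Top2a, the topoisomerase that untangles replicated chromosomes, measured 177 to 329 CPM (median 233) in round 1. Round 2 gave 125, 119 and 117 CPM at 24 h and 119.7 and 118 CPM at 48 h. These 5 values were close to each other and all below round 1 (-1.04 ± 0.11 (SE), edgeR adjusted p = 4.91e-06). Ccnb1, the mitotic cyclin, changed by -1.17 ± 0.12 (SE), edgeR adjusted p = 5.62e-06. Cdc20, the activator of the anaphase-promoting complex, changed by -1.1 ± 0.13 (SE), edgeR adjusted p = 1.41e-05, and the proliferation antigen gene Mki67 by -0.82 ± 0.11 (SE), edgeR adjusted p = 5.09e-05. Among 12 genes of DNA replication, 9 were lower, none was higher and 4 did not overlap, with a median of -0.45. At 24 h alone 11 were lower (median -0.69), and at 48 h alone 2 were lower and 1 higher (median -0.14). The difference between the times, tested as an interaction with edgeR, passed for none of the 12. Rrm2, a subunit of ribonucleotide reductase, changed by -0.95 ± 0.10 (SE), the thymidylate synthase gene Tyms by -0.66 ± 0.09 (SE) and the helicase subunit gene Mcm2 by -0.56 ± 0.10 (SE).

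Promoters of the mitosis genes are shown because these genes moved together. RefSeq windows on GRCm38.p6, 250 bases before to 50 bases after the start, were matched for 11 of the 12 genes, and CCAAT (either strand) occurred in 10 of 11 windows (90.9%) against 37.4% of 32851 windows of the same length. The cell cycle homology letters TTTGAA or TTCGAA occurred in 9 of 11 (81.8%) against 19.2%. The ETS letters GAGGAAGT were searched in 2 further lists. They occurred in 1 of 7 windows (14.3%) of the ERK list and 2 of 10 (20%) of the myeloid list, against 3.2% of all windows. No match is a measured binding site. The lists were chosen with earlier results of these data known. The shares were taken from sequence alone and say nothing about the rounds. Below, capitals mark CCAAT and the cell cycle homology letters on either strand, in Cdc20 (chr4:118437294-118437593, minus strand) and Top2a (chr11:99024140-99024439, minus strand).
Cdc20: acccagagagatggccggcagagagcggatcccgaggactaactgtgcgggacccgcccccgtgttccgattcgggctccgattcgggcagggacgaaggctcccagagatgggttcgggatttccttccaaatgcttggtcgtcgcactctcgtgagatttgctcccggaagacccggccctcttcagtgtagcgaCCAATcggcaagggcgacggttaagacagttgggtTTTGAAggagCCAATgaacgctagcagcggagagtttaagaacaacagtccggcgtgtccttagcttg
Top2a: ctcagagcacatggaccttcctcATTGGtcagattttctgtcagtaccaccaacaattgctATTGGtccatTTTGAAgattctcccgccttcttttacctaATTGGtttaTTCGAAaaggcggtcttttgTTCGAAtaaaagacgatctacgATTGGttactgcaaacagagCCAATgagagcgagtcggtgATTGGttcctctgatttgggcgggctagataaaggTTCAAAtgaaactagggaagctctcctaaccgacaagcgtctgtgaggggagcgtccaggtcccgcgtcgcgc

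**Figure D3:**
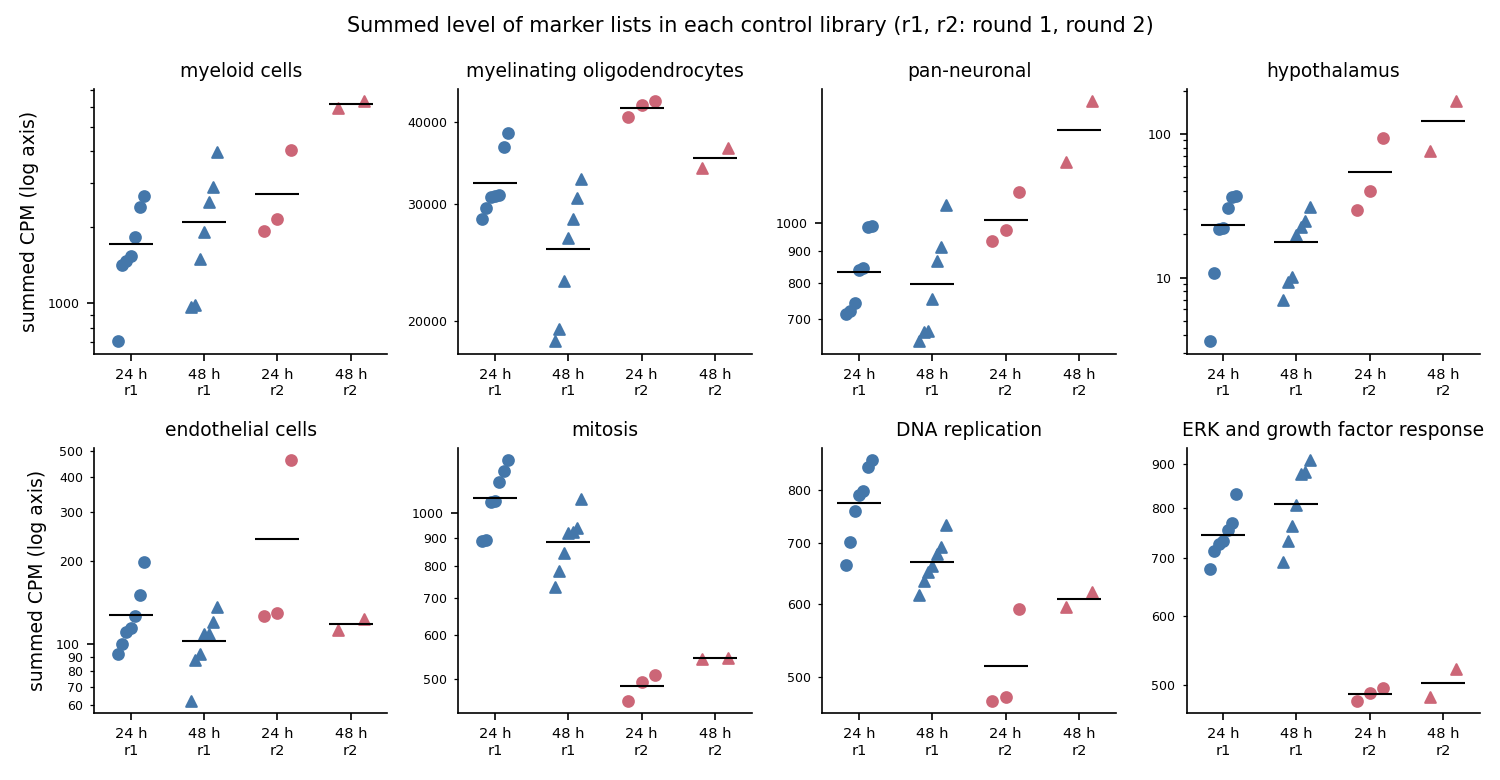
Summed CPM (log axis) over the genes of 8 lists in each control library, 1 point per library, grouped by time and round, with black lines at the group means. The round 2 points lie below every round 1 point for mitosis and for ERK and growth factor response, whereas the rounds overlap for pan-neuronal and endothelial markers, with a single library highest in each (48 h replicate 7 and 24 h replicate 8 of round 2).

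Neural stem and progenitor markers and astrocyte genes did not move as one. Nes, which encodes the intermediate filament nestin of progenitors and reactive glia, measured 274 to 718 CPM (median 447) in round 1. In round 2 it measured 194, 189 and 165 CPM at 24 h and 115 and 149 CPM at 48 h, without overlap (-1.5 ± 0.23 (SE), edgeR adjusted p = 1.38e-04). Aldh1l1, an enzyme of folate metabolism used as an astrocyte marker, was lower too (-1.63 ± 0.26 (SE), edgeR adjusted p = 1.69e-04), with 231 to 749.6 CPM (median 387) against 106 to 159.6 CPM (median 127). Other astrocyte markers did not follow. Aqp4 (water channel) changed by 0.21 ± 0.11 (SE) and Slc1a2 (glutamate transporter) by -0.06 ± 0.13 (SE), neither past the test, and Gjb6 (connexin 30) was higher by 0.94 ± 0.30 (SE). Of 12 astrocyte markers, 1 was higher and 4 lower, and of 16 genes of reactive astrocytes, 2 were higher and 3 lower. Without 48 h replicate 7 of round 2, none of either list was higher. Without 24 h replicate 8 of round 2, 5 of the reactive genes were lower, and without 48 h replicate 7, 1 was. The intermediate filament genes Gfap (0.06 ± 0.16 (SE)) and Vim (-0.27 ± 0.13 (SE)) did not pass, and Lcn2, a secreted acute-phase protein, was lower (-0.68 ± 0.20 (SE), edgeR adjusted p = 0.0117).

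Sox11, a transcription factor of immature neurons, was lower without overlap (-0.80 ± 0.14 (SE), edgeR adjusted p = 2.93e-04), and Dcx, the neuroblast microtubule protein, did not pass (-0.21 ± 0.17 (SE)). Of 8 neuroblast genes, 3 were lower and none was higher, and without 24 h replicate 7 of round 2, 5 were lower. Hey1 and Hes1, targets of Notch, changed by -0.77 ± 0.15 (SE) and -0.64 ± 0.16 (SE). In the Notch and Wnt list of 10 genes, 5 were lower and 2 higher, and without 48 h replicate 7 of round 2, 3 were lower. Targets of the hypoxia factor HIF were lower for 6 of 13 genes and higher for 1. Vegfa, the endothelial growth factor, measured 52.4 to 258 CPM (median 88.7) in round 1. It measured 28.7, 55.6 and 31.1 CPM at 24 h and 33.9 and 30.6 CPM at 48 h in round 2, where 24 h replicate 8 alone reached the round 1 range (-1.45 ± 0.36 (SE), edgeR adjusted p = 0.00408). Egln3, a HIF prolyl hydroxylase, changed by -1.58 ± 0.35 (SE) and Adm, a vasodilator peptide, by -1.42 ± 0.32 (SE). The glucose transporter Slc2a1 showed no difference past the test (0.0036 ± 0.10 (SE)).

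Genes of myelin were higher. Of 13 markers of myelinating oligodendrocytes, 12 were higher, none was lower, and the median was 0.45 (0.47 in batch 2, 0.48 in batch 3). Leaving out 48 h replicate 7 of round 2 left 8 higher at a median of 0.42. At 24 h alone 12 were higher (median 0.43), and at 48 h alone 0 were (median 0.48). Opalin, an oligodendrocyte membrane glycoprotein, measured 28.7 to 82.2 CPM (median 69.4) in round 1. It measured 105, 129 and 131 CPM at 24 h and 94.7 and 103 CPM at 48 h in round 2, above round 1 in each library (0.78 ± 0.17 (SE), edgeR adjusted p = 0.00185). Mbp, which encodes the structural myelin basic protein, changed by 0.37 ± 0.12 (SE). The precursor stage differed from this. Of 9 precursor genes, 2 were higher and 2 lower. Olig2, the lineage factor, was lower (-0.61 ± 0.12 (SE), edgeR adjusted p = 0.00121), C1ql1, a secreted protein of precursors, was higher without overlap (0.63 ± 0.08 (SE), edgeR adjusted p = 3.88e-05), and Pdgfra (-0.05 ± 0.14 (SE)) and Cspg4 (0.41 ± 0.18 (SE)) did not pass.

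**Figure D4:**
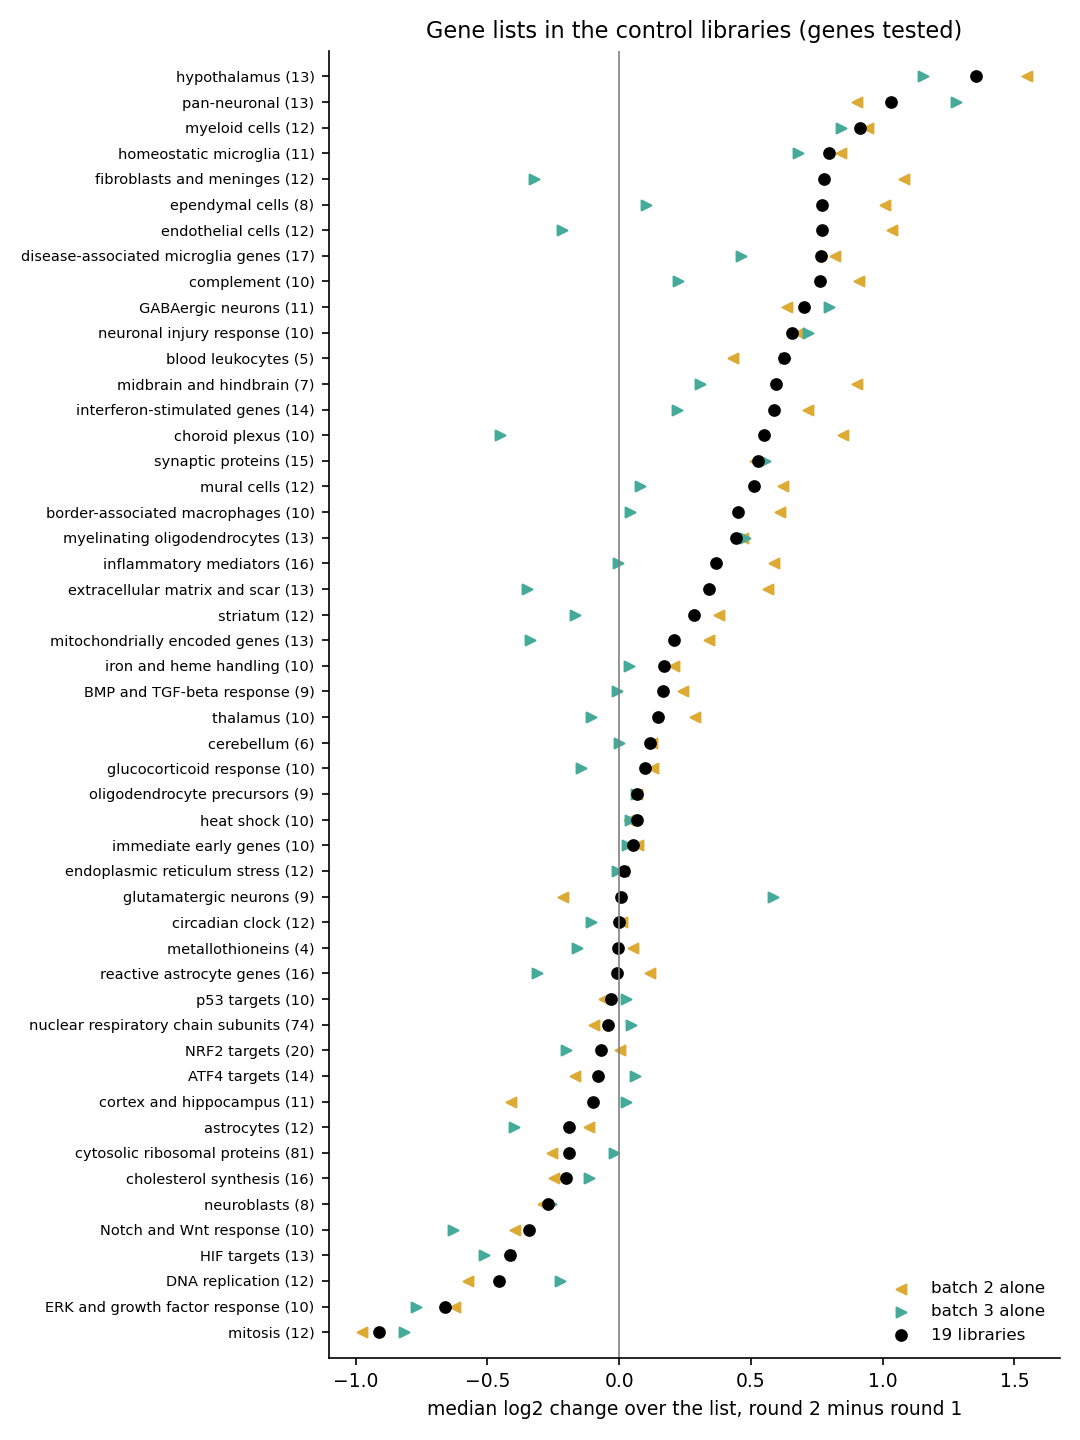
Median log2 change of round 2 against round 1 for each gene list (genes tested in brackets), from all 19 control libraries (black circles), batch 2 alone (left-pointing) and batch 3 alone (right-pointing). Mitosis and ERK response lie at the negative end in both batches, and fibroblasts and meninges, endothelial cells, choroid plexus and mitochondrially encoded genes are among the lists whose sign changes in batch 3.

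Microglial and macrophage genes were higher, and this rested on few libraries. All 12 shared myeloid markers were higher, at changes between 0.78 and 1.05 and a median of 0.91. Summed over the list, round 1 spread from 706 to 3975 CPM. The round 2 libraries held 1939.6, 2160.5 and 4025 CPM at 24 h and 6315 and 5944 CPM at 48 h. At 24 h, replicates 7 and 8 lay inside the range of round 1, and the other 3 libraries lay above it. No gene of the list was free of overlap. Leaving out 48 h replicate 7 of round 2 left 0 of the 12 past the test (median 0.56), and leaving out 48 h replicate 8 of round 1 left 8. Batch 2 alone called 4 and batch 3 alone 12, with medians of 0.95 and 0.84. The 24 h libraries alone called 0 (median 0.46) and the 48 h libraries alone 2 (median 1.44).

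Cd68, a lysosomal protein of phagocytes, measured 95.2 to 439 CPM (median 226) in round 1. Round 2 gave 289, 299 and 479 CPM at 24 h and 799 and 766 CPM at 48 h (0.99 ± 0.28 (SE), edgeR adjusted p = 0.00943). At 24 h, replicates 7 and 8 lay inside the range of round 1, and the other 3 libraries lay above it. Fcer1g, an adaptor of Fc receptors, changed by 1.0 ± 0.29 (SE), the microglial actin binder gene Aif1 by 1.05 ± 0.36 (SE) and the integrin gene Itgam by 0.78 ± 0.31 (SE). Among 11 genes of homeostatic microglia, 5 were higher and 1 lower, and Fcrls (1.23 ± 0.45 (SE)) and Selplg (1.0 ± 0.32 (SE)) were among those higher. P2ry12, the microglial purine receptor, did not pass (0.13 ± 0.17 (SE)), and neither did Tmem119 (0.96 ± 0.40 (SE)). Without 48 h replicate 7 of round 2, none of these genes was higher, and without 48 h replicate 8 of round 1, 2 were.

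Genes of disease-associated microglia moved the same way. Of 17, 14 were higher and 1 lower, with a median of 0.76. Without 48 h replicate 7 of round 2, 2 were higher and none was lower. Lgals3, galectin-3, measured 180.2 to 588 CPM (median 307) in round 1. It measured 479, 506 and 685 CPM at 24 h and 673 and 894 CPM at 48 h in round 2 (0.87 ± 0.20 (SE), edgeR adjusted p = 0.00258). Trem2, a lipid-sensing receptor, changed by 0.97 ± 0.27 (SE), Apoe by 0.37 ± 0.14 (SE) and the protease inhibitor gene Cst7 by 1.01 ± 0.37 (SE). Of 10 genes of border-associated macrophages, 3 were higher, among them Folr2 (0.91 ± 0.30 (SE)). Mrc1 (0.30 ± 0.18 (SE)) and Cd163 (-0.16 ± 0.35 (SE)) did not pass, and none of the 10 passed without 48 h replicate 7 of round 2. The count was 6 without 48 h replicate 4 of round 1 and 5 without its 24 h replicate 5. Blood leukocyte genes were close to absent: 9 of 14 were too low to test, and 1 of the 5 tested was higher.

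Complement and inflammatory genes were higher in part. Of 10 complement genes, 8 were higher, and 6 were without 48 h replicate 7 of round 2. The median was 0.91 in batch 2 and 0.22 in batch 3. C4b, a component of the classical pathway, measured 377 to 515 CPM (median 428) in round 1. It measured 573, 596 and 558 CPM at 24 h and 527 and 572 CPM at 48 h in round 2, above round 1 in every library (0.36 ± 0.06 (SE), edgeR adjusted p = 3.37e-04). Cfb, of the alternative pathway, measured 3.27 to 10.8 CPM (median 6.62) in round 1. Round 2 gave 21.1, 37.4 and 15.8 CPM at 24 h and 4.45 and 9.55 CPM at 48 h (1.1 ± 0.26 (SE), edgeR adjusted p = 0.00315), high at 24 h and inside the round 1 range at 48 h. C3, the central component, had the same split and did not pass (0.32 ± 0.30 (SE)), with changes of 0.72 at 24 h and -0.51 at 48 h, and -0.48 in batch 3. C5ar1, a receptor of myeloid cells, changed by 0.87 ± 0.29 (SE).

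Saa3, a serum amyloid acute-phase protein, measured 178 to 289 CPM (median 232) in round 1. It measured 637, 946 and 578 CPM at 24 h and 258 and 419 CPM at 48 h in round 2 (1.18 ± 0.17 (SE), edgeR adjusted p = 6.66e-05). Of the 5 libraries, 48 h replicate 7 alone fell inside the range of round 1. Ccl5, a chemokine, changed by 1.64 ± 0.34 (SE) at low levels, and Il1a by 0.63 ± 0.18 (SE). Of 16 inflammatory mediators, 7 were higher and none was lower, and 2 were higher without 48 h replicate 7 of round 2. Il1b was too low to test, with at most 0.0593 CPM in any library.

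Interferon-stimulated genes were higher for 10 of 14, with a median of 0.59 (0.72 in batch 2, 0.22 in batch 3). The count fell to 4 without 24 h replicate 8 of round 2 and to 2 without 48 h replicate 7. Isg15, a ubiquitin-like antiviral modifier, measured 0.786 to 3.28 CPM (median 1.75) in round 1. Round 2 gave 2.21, 3.46 and 3.43 CPM at 24 h and 3.86 and 3.87 CPM at 48 h (0.69 ± 0.25 (SE), edgeR adjusted p = 0.0321), with 24 h replicate 7 inside the range of round 1. Ifit1 changed by 0.72 ± 0.28 (SE), with 24 h replicate 8 highest at 15.9 CPM, Oas1a by 0.90 ± 0.24 (SE), and Ifit2 did not pass (-0.09 ± 0.08 (SE)). Windows of 10 of the 14 genes were matched, 11 windows in all, and the core of the interferon-stimulated response element, TTTC and TTTC with any 2 bases between them on either strand, occurred in 7 (63.6%) against 3.44% of all windows. This share, too, was taken from sequence alone and says nothing about the rounds. The Isg15 window (chr4:156200769-156201068, minus strand, GRCm38.p6) is shown with the letters of this element in capitals.
Isg15: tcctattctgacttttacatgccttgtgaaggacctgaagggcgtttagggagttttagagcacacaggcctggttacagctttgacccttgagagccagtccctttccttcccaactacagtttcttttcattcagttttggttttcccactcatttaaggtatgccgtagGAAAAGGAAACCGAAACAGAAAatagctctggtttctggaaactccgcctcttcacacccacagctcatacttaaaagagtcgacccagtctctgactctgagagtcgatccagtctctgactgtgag

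Neuronal genes were higher in round 2 and highest in 1 library. Of 13 pan-neuronal genes, 11 were higher and 1 lower, with a median of 1.03. The summed level was 645 to 1066 CPM in round 1. In round 2 it was 934, 972 and 1119 CPM at 24 h and 1567 and 1252 CPM at 48 h. The highest value was that of 48 h replicate 7, without which 3 genes were higher and 1 lower (median 0.63). At 24 h alone 2 were higher and 1 lower (median 0.49), and at 48 h alone 8 were higher and 0 lower (median 1.58). Rbfox3, which encodes the neuronal nuclear antigen NeuN, measured 1.42 to 4.65 CPM (median 2.02) in round 1. It measured 3.21, 2.55 and 3.66 CPM at 24 h and 10.2 and 4.64 CPM at 48 h in round 2, overlapping round 1 (1.03 ± 0.29 (SE), edgeR adjusted p = 0.00897). Snap25, of the vesicle fusion machinery, changed by 1.09 ± 0.38 (SE), the growth-cone protein gene Stmn2 by 1.47 ± 0.43 (SE) and the neurofilament gene Nefl by 1.32 ± 0.38 (SE).

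By transmitter type the neuronal lists differed in count. Of 11 GABAergic genes, 5 were higher and 1 lower, and without 48 h replicate 7 of round 2, 3 were higher, while without 24 h replicate 7, 3 were lower. Gad1, which makes GABA, changed by 1.13 ± 0.28 (SE), edgeR adjusted p = 0.0038, its sister enzyme gene Gad2 by 0.54 ± 0.28 (SE) without passing, the interneuron peptide gene Sst by 1.32 ± 0.23 (SE) and the vesicular transporter gene Slc32a1 by 1.34 ± 0.36 (SE). Of 9 glutamatergic genes, 1 was higher, and the vesicular transporters Slc17a7 (-0.63 ± 0.74 (SE)) and Slc17a6 (1.76 ± 0.80 (SE)) did not pass. Of 15 synaptic genes, 7 were higher and 1 lower, among them Syn1 (0.98 ± 0.21 (SE)) and Grin1 (1.06 ± 0.32 (SE)). Without 48 h replicate 7, 2 synaptic genes were higher and 1 lower, and no glutamatergic gene was higher.

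Gal and Sprr1a, which injured neurons switch on, were among the 12 highest called changes at a mean of at least 1 CPM. Gal, the neuropeptide galanin, measured 0.387 to 18.9 CPM (median 8.4) in round 1. It measured 6.5, 54 and 18.7 CPM at 24 h and 119 and 50.1 CPM at 48 h in round 2 (2.56 ± 0.59 (SE), edgeR adjusted p = 0.0026). At 24 h, replicates 7 and 11 lay within round 1, and the other libraries lay above it. Sprr1a, a protein of regrowing axons, changed by 2.18 ± 0.70 (SE), edgeR adjusted p = 0.0186, with 145 CPM in 48 h replicate 7 and no more than 61.6 CPM in the other round 2 libraries. Atf3, an injury-induced transcription factor, measured 29.2 to 94.7 CPM (median 50.2) in round 1. Round 2 gave 70.8, 94.9 and 115 CPM at 24 h and 139 and 143 CPM at 48 h (1.02 ± 0.22 (SE), edgeR adjusted p = 0.00175). Cckbr, a cholecystokinin receptor, was the 1 gene of the 12 highest without overlap, at 0.279 to 2.07 CPM (median 1.19) against 2.9 to 5.03 CPM (median 4.03) (1.8 ± 0.43 (SE), edgeR adjusted p = 0.00314). Of 10 neuronal injury genes, 6 were higher and 1 lower.

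Several of the 12 highest genes are known from the hypothalamus and neighbouring nuclei. Magel2, an imprinted gene, changed by 2.05 ± 0.69 (SE), the orphan receptor gene Gpr101 by 2.15 ± 0.85 (SE), the exocytosis gene Baiap3 by 1.8 ± 0.65 (SE) and Gabre, a GABA receptor subunit, by 1.79 ± 0.63 (SE). The others were Fndc9 (2.07), Adcyap1 (the peptide PACAP, 1.99), Gdf10 (1.82), Acvr1c (1.82) and Gpr151 (a habenular receptor, 1.81). In all of these the ranges of the rounds overlapped. Of 13 hypothalamic genes, 8 were higher and none was lower, at a median of 1.36. The summed level was 3.59 to 36.7 CPM in round 1. It was 29.6, 93.1 and 40.1 CPM at 24 h and 169 and 76.3 CPM at 48 h of round 2. Only 24 h replicate 7 lay inside round 1. Gal belongs to this list as well as to the neuronal injury list. It made up most of the summed level in 24 h replicate 8 and in both 48 h libraries of round 2. The sum without Gal was not computed.

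Peptide genes of single hypothalamic nuclei were present in some libraries and absent in others. Pmch, melanin-concentrating hormone, reached 2.19 CPM in 24 h replicate 8 and 13.4 CPM in 48 h replicate 7 of round 2, and at most 0.549 CPM elsewhere. Hcrt, orexin, reached 3.34 CPM in 24 h replicate 8 and 0.858 CPM in 48 h replicate 7, with a highest value of 1.34 CPM in round 1. Avp and Oxt, of the magnocellular neurons, did not pass (0.23 ± 1.58 (SE) and 0.45 ± 1.05 (SE)). Hypothalamic calls fell to 3 without 24 h replicate 8 of round 2 and to 2 without 48 h replicate 7. The level of the brain each slice came from is not in the labels, and its part in these differences was not tested.

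Genes of other brain regions showed no common direction. Of 11 genes of cortex and hippocampus, 2 were higher and 2 lower. Rorb, a layer marker, was lower without overlap (-1.25 ± 0.23 (SE), edgeR adjusted p = 4.56e-04), Lhx2 was lower (-1.11 ± 0.21 (SE)), and Emx1 (-0.06 ± 0.31 (SE)) and Tbr1 (0.01 ± 0.69 (SE)) did not pass. Of 12 striatal genes, 2 were higher and 2 lower, with Penk, enkephalin, at 1.75 ± 0.51 (SE) and Adora2a, the adenosine receptor, at -0.80 ± 0.25 (SE), and Drd1 (0.61 ± 0.32 (SE)) and Drd2 (0.54 ± 0.26 (SE)) not past the test. Of 10 thalamic genes, 1 was higher and 1 lower, with Tcf7l2 at 0.08 ± 0.06 (SE). Of 6 cerebellar genes, 1 was higher and 1 lower, and of 7 genes of midbrain and hindbrain, 3 were higher, or 1 without 48 h replicate 7 of round 2. Without that library, 1 gene of cortex and hippocampus was higher and 2 were lower, 1 striatal gene was higher and 1 lower, and no thalamic or cerebellar gene was higher.

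Counts of vessel and meningeal genes moved with single libraries. The summed endothelial level was 62.3 to 198 CPM in round 1. In round 2 it was 129, 461 and 126 CPM at 24 h and 113 and 123 CPM at 48 h, so that 24 h replicate 8 alone stood above round 1. Of 12 endothelial genes 5 were higher (median 0.77), and without that library 1 was higher and 1 lower (median -0.01). Leaving out 24 h replicate 7 or 11 of round 2 gave 8, and leaving out 24 h replicate 1, 2 or 3 of round 1 gave 3. The junction genes Pecam1 (0.81 ± 0.30 (SE)) and Cdh5 (0.89 ± 0.35 (SE)) and the receptor gene Tie1 (0.82 ± 0.30 (SE)) were higher, while Cldn5, a tight-junction protein, did not pass (0.57 ± 0.31 (SE)). Of 12 genes of fibroblasts and meninges, 3 were higher. The count was 0 without 24 h replicate 8 of round 2, 1 without 48 h replicate 7 and 7 without 24 h replicate 5 of round 1. Dcn (decorin) changed by 0.82 ± 0.25 (SE), Mgp by 0.85 ± 0.29 (SE), and the collagen genes Col1a1 (1.14 ± 0.57 (SE)) and Col1a2 (0.88 ± 0.43 (SE)) did not pass. In batch 3 the medians were -0.22 and -0.32. Of 12 mural genes, 3 were higher and 1 lower, and without 48 h replicate 7 of round 2, 1 was higher. Without 24 h replicate 5 or 48 h replicate 4 of round 1, 5 were. Vtn (vitronectin, 1.42 ± 0.35 (SE)) and Anpep (0.94 ± 0.26 (SE)) were higher, and Pdgfrb (0.52 ± 0.22 (SE)) and Rgs5 (0.50 ± 0.23 (SE)) did not pass.

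Genes of the ventricular lining were higher for 7 of 8 ependymal markers, with a median of 1.01 in batch 2 and 0.10 in batch 3. Without 24 h replicate 8 of round 2, 3 were higher. At 24 h alone 7 were higher (median 1.07), and at 48 h alone 0 were (median 0.24). Tmem212 (1.38 ± 0.39 (SE)) and Ccdc153 (1.24 ± 0.32 (SE)), both of motile cilia, were among them, and Foxj1, the master factor of motile cilia, did not pass (0.19 ± 0.13 (SE)). Choroid plexus genes passed for 0 of 10 (median 0.55, or 0.22 without 48 h replicate 7 of round 2), while batch 3 alone called 4 lower at a median of -0.45, opposite in sign. Ttr, the transthyretin of the plexus, was at or near 0 in most of round 1 (median 0.156 CPM) and reached 896 CPM in its highest library. Its round 2 values were 0.177, 544 and 214 CPM at 24 h and 312 and 237 CPM at 48 h. Kl, another plexus gene, did not pass (0.68 ± 1.02 (SE)).

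Stress and metabolic lists moved less. Among 10 heat shock genes, 2 were higher and 3 lower, and 4 were higher without 24 h replicate 1 of round 1. Hspa1a, an inducible chaperone, measured 3.83 to 13.3 CPM (median 7.49) in round 1. It measured 23.7, 51 and 20.5 CPM at 24 h and 14.9 and 18.3 CPM at 48 h in round 2, above round 1 in each library (1.76 ± 0.25 (SE), edgeR adjusted p = 6.20e-05). Its twin Hspa1b changed by 1.5 ± 0.22 (SE). The 2 genes are nearly identical in sequence, and the split of their reads is uncertain. The mitochondrial chaperone gene Hspd1 was lower without overlap (-0.62 ± 0.08 (SE), edgeR adjusted p = 3.27e-05). Of 20 NRF2 targets, 5 were higher and 6 lower, and 3 were higher without 48 h replicate 7 of round 2. Hmox1, heme oxygenase 1, was higher (0.83 ± 0.23 (SE), edgeR adjusted p = 0.00845), the cystine transporter gene Slc7a11 was lower (-0.75 ± 0.28 (SE)), and Nqo1 did not pass (-0.17 ± 0.15 (SE)). Of 10 genes of iron and heme handling, 2 were higher and 1 lower (1 and 1 without 48 h replicate 7 of round 2). The transferrin receptor gene Tfrc was lower without overlap (-0.54 ± 0.06 (SE), edgeR adjusted p = 1.33e-05), at 101 to 131 CPM (median 117) against 62.2 to 95.3 CPM (median 76.1).

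Genes of cholesterol synthesis were lower for 6 of 16 and higher for none (median -0.20), and 3 were lower without 48 h replicate 7 of round 2. Cytosolic ribosomal proteins were lower for 45 of 81 (median -0.19), and the count dropped to 8 without 48 h replicate 7 of round 2, to 23 without 24 h replicate 7 and to 27 without 24 h replicate 10 of round 1. Batch 3 alone gave a median of -0.02 for these proteins. Of 74 nuclear respiratory chain genes, 6 were higher and 22 lower (median -0.04), and 11 were lower without 48 h replicate 7. Of the mitochondrially encoded genes, 1 of 13 was higher, or 4 without 24 h replicate 5 of round 1 or 24 h replicate 11 of round 2, and none without 48 h replicate 7 of round 2. Batch 2 alone called 6 of them higher and none lower (median 0.34), whereas batch 3 alone called 1 higher and 4 lower (median -0.34). The remaining lists had medians between -0.08 and 0.17. ATF4 targets were higher for 2 and lower for 3 of 14 (5 lower without 48 h replicate 4 of round 1). Genes of endoplasmic reticulum stress were higher for 3 and lower for 2 of 12 (1 and 1 without 48 h replicate 7 of round 2), p53 targets for 4 and 4 of 10, clock genes for 1 and 2 of 12 (1 and 0 without that library), and glucocorticoid-responsive genes for 3 and 1 of 10. BMP and TGF-beta response genes were higher for 3 of 9. No metallothionein of 4 passed.

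Whether the rounds differed by another amount at 48 h than at 24 h was tested as an interaction. It passed for 0 of 16549 genes (0%) with edgeR, while 1960 had an unadjusted p under 0.05 and DESeq2 called 73, led by the histone chaperone gene Asf1b. Without 24 h replicate 11 of round 2, edgeR called 15. The 24 h libraries alone gave 3391 calls between rounds, and the 48 h libraries alone gave 2709. Counts for 24 h alone and 48 h alone, here and in the lists above, rest on unlike numbers of round 2 libraries. No gene of those lists passed the interaction with edgeR on all 19 libraries.

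The rounds were then compared in treated slices, which share no library with the controls but come from the same 2 rounds. Whether they share animals with the controls is not given in the labels. Hb-treated slices (200 or 400 µM hemoglobin; 12 libraries of round 2 and 28 of round 1) gave 26.7% of 16757 genes higher and 21.2% lower. Hp-treated slices (400 µM haptoglobin alone; 12 and 11 libraries) gave 24.3% of 15645 higher and 23.8% lower. Of 7618 genes called in controls and tested in both, 98.5% had the same sign in Hb and 91.3% in Hp, and 59.1% were called with that sign in both. All 12 of the lowest genes were lower in both treatments. Dhh, for example, changed by -2.69 in Hb and -2.66 in Hp.

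By list, the myeloid markers were higher for 12 of 12 genes in Hb (median 0.94) and in Hp (median 1.09). Myelin genes were higher for 13 of 13 in each (medians 0.40 and 0.59). ERK response genes were lower for 9 of 10 in each (medians -0.54 and -0.70). Mitosis genes were lower for 12 of 12 in Hb (median -0.55) and 10 of 12 in Hp (median -0.32). DNA replication genes were lower for 8 and higher for none of 12 in Hb (median -0.27), and higher for 3 and lower for 2 in Hp (median -0.06). Pan-neuronal genes were higher for 5 and lower for 1 of 13 in Hb, and higher for 2 and lower for 4 in Hp. Hypothalamic genes were higher for 5 of 13 in Hb and 2 of 10 in Hp. The difference from controls, tested as an interaction, passed for none of the 13 pan-neuronal and 13 hypothalamic genes with Hb, and for 4 and 1 with Hp. The medians of this difference were -0.77 and -1.06 with Hb, and -0.95 and -1.37 with Hp. Hb was not tested against Hp. Cholesterol synthesis genes were lower for 15 of 16 in Hb and 12 of 16 in Hp. Neuroblast genes, with a median of -0.27 in controls, were higher for 4 and lower for none of 8 in Hb (median 0.36). In Hp they were higher for 1 and lower for 2 (median 0.22). The interaction passed for no neuroblast gene with either treatment.

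**Figure D5:**
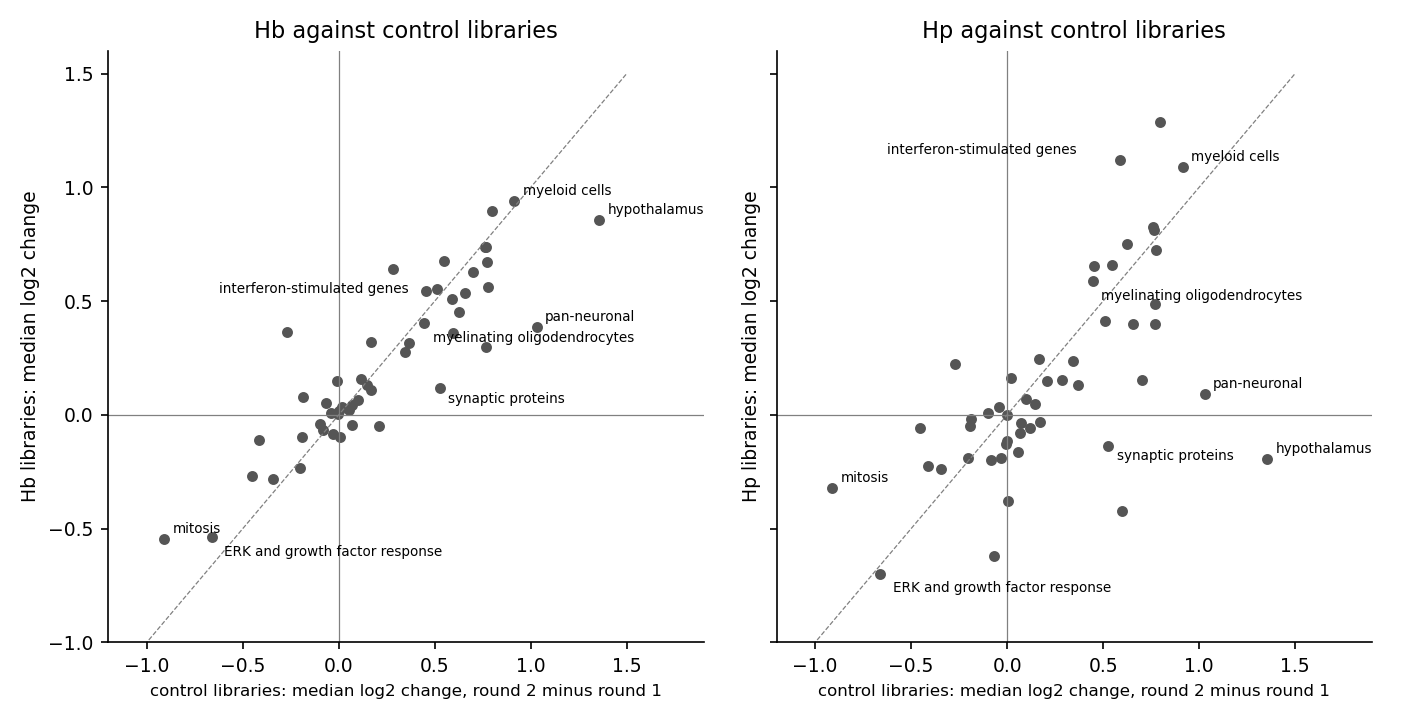
Median log2 change of round 2 against round 1 for each gene list, in Hb libraries (left) and Hp libraries (right) on the vertical axis against control libraries on the horizontal axis, 1 point per list, with a dashed line of equality. Myeloid and ERK lists lie near the line in both panels, and pan-neuronal and hypothalamic lists lie below it in both panels, further so with Hp.

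Whether the treatment changed the difference between rounds was tested as an interaction. For Hb it passed for 0 of 16968 genes (0%) with edgeR, with 1734 at an unadjusted p under 0.05 and 2 called by DESeq2. For Hp it passed for 1018 of 16394 genes (6.21%), 361 higher and 657 lower. All 23 Hp libraries are in batch 3, whereas 15 of the 19 control libraries are in batch 2, so a round difference that varied with batch cannot be told apart from one that varied with Hp. Within batch 3, which holds 4 control libraries, 62 genes passed (12 higher, 50 lower), and without 48 h replicate 7 of round 2, 612 did. Of those 4 control libraries, the ones of round 1 were female and the ones of round 2 male by their letter. This Hp test was added after the list medians had been seen. The lowest p belonged to Srxn1, a sulfiredoxin of the NRF2 program, at -1.31 ± 0.15 (SE) and an edgeR adjusted p of 1.51e-06, followed by Ubr4 at -0.45 and Sqstm1, an autophagy receptor, at -0.77. Within batch 3 alone these were -1.32, -0.49 and -0.72, each past the test. Of 20 NRF2 targets 14 were lower and none was higher, and Slc7a11 changed between rounds by -2.01 in Hp against -0.75 in controls. Of 15 synaptic genes 7 were lower, of 13 pan-neuronal genes 4, and of 12 mitosis genes 9 were higher, meaning a smaller drop with Hp. Within batch 3 alone the counts were 2 NRF2 targets, 1 synaptic, 3 pan-neuronal and 0 mitosis genes. Without 48 h replicate 7 of round 2, 15 NRF2 targets, 0 synaptic, 2 pan-neuronal and 10 mitosis genes passed.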

How the data were processed

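The authors cultured the slices, sequenced TruSeq mRNA libraries and deposited raw read counts per Ensembl gene. The submitters' processing notes name featureCounts and GRCm39, with no versions and no strand setting. Everything else was computed here from these counts. GRCm38 served only for symbols, lengths, GC content, overlaps and RefSeq promoter windows. Of the 136 genes tested and named, 53 overlap the span of another annotated gene, introns included (20 on the same strand, 42 on the other).

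Library groups came from the labels. Genes were kept by filterByExpr (count 10, total count 15), scaled by TMM and fitted in edgeR 4.0.16 (R 4.3.3) with time, batch and round as terms, with each SE derived from the F statistic. DESeq2 1.42.0 and limma 3.58.1 served as alternatives. On simulated counts for the control comparison (16300 genes), 66, 66 and 65 genes were changed by 0.5, 1 and 2 (log2). Of these, 48.5%, 81.8% and 98.5% were recovered, and 6.83% of calls were false. The simulated libraries were independent, and far fewer genes were changed than the 46.8% called in the data. These rates therefore do not carry over to the 7753 calls.

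Genes named were the 12 highest and 12 lowest called changes at a mean of at least 1 CPM, and for each of 51 lists its first 2 genes and up to 2 more with the largest called change. Il1b, Asf1b, Srxn1, Ubr4 and Sqstm1 came from those lists or from the interaction tests. Some genes that this rule names are not reported here. Members and lists were chosen with earlier results of these data known. Batch 1 and libraries with no assigned group entered no test.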

Additional observations from a re-analysis of the deposited data

Results flagged for a closer look

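Of 414 checks of a named gene within a group of libraries, 29 found a single library far from the rest of its group by Dixon's test. Chance gives about 1 in 20 for independent checks. These checks are not independent, since several fell on the same library and on genes of the same list. In the round 2 group of 5, 24 h replicate 8 was highest for the endothelial genes Cldn5 (36.4 CPM against at most 9.81 in the others), Pecam1 (67.5 against 14.9), Cdh5 (142 against 27.6) and Tie1 (41.9 against 11.7). It was also highest for Rgs5 of mural cells (56.1 against 35.7) and Dcn of fibroblasts (279 against 128). The same library was highest for the HIF targets Vegfa (55.6 against 33.9), Slc2a1 (122 against 93.6), Egln3 (12.4 against 8.54) and Adm (10.1 against 4.31). Whether these values share a source was not tested.

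The other round 2 libraries gave fewer such values. In 24 h replicate 7, Ttr was lowest (0.177 CPM against at least 214), Isg15 was lowest (2.21 against 3.43) and Rorb was highest (15.5 against 11.2). In 48 h replicate 7, Gabre was highest (5.98 against 2.15) and Vim lowest (1476 against 2031).

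In round 1 at 24 h, replicate 4 was lowest for P2ry12 (5.72 CPM), Trem2 (34.1), Lgals3 (180.2), Anpep (27.9) and Hmox1 (667). Replicate 1 was highest for Gabre (3.57) and Gad2 (46.9), replicate 2 for Pmch (0.549) and Hcrt (1.34), and replicate 3 was lowest for Ccdc153 (1.14) and highest for Egr1 (108). At 48 h, replicate 4 was lowest for Dhh (16.9), and replicate 5 was highest for Slc17a7 (4.45) and lowest for Tie1 (3.85).

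The difference between rounds was not the same in Hp-treated as in control slices for 1018 genes by the interaction test, in which every Hp library but no more than 4 of the 19 control libraries was of batch 3. Within batch 3 the count was 62, and without 48 h replicate 7 of round 2 it was 612. Batch and treatment cannot be fully told apart here.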

How the results depend on the processing

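The count of genes differing between rounds in controls (7753) was 4682 in batch 3 alone, 3391 at 24 h alone and 2709 at 48 h alone, each with fewer libraries. Leaving out 1 library at a time gave 4613 (without 48 h replicate 7 of round 2) to 8294. Batch 2 alone gave 5688, and other settings gave 7362 to 8549 (DESeq2 8167, protein-coding genes alone, added after seeing the data, 7661). The name code was tried as a replicate block, since the title numbers did not pair the libraries (correlations of -0.49 to 0.39 between same-numbered libraries, and 0.05 to 0.29 between libraries of the same code in different rounds). A random block gave 7712 calls and a fixed block across rounds 1476 (452 higher, 1024 lower, so that 30.6% of calls were higher against 50.2%).

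The interaction of round and time passed for 73 genes with DESeq2 and for 0 to 15 when 1 library was left out. The round difference gave 2077 genes in Hb at 400 µM alone and 4618 in Hp at 48 h alone. The interaction with Hb passed for 2 genes with DESeq2. The interaction with Hp, a test chosen after seeing the data, passed for 62 in batch 3 alone and for 612 without 48 h replicate 7 of round 2.

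Of 4732 alternative values for 136 named genes, 4319 kept direction and side of the threshold, 350 were no longer past it, 54 came past it and 9 changed direction. These 9 were C3 in batch 3 (-0.48) and at 48 h (-0.51), Ttr (-1.09), Pecam1 (-0.17), Cdh5 (-0.29), Col1a1 (-0.36), Col1a2 (-0.32) and Dcn (-0.0038) in batch 3, and Cdh5 without 24 h replicate 8 of round 2 (-0.012, against up to 1.08 without 48 h replicate 7). Why batch 3 differed was not tested, and round and sex cannot be told apart among its control libraries. With 5 round 2 libraries, small changes in single genes may be missed.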

Other observations

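A further control library of round 2 in batch 2 has no settled time in its labels and entered no test. On a scale set over all control libraries, its summed ERK response level was 500.1 CPM, between the 473 and 517 CPM of the other round 2 libraries and below the lowest of round 1 (668 CPM). Its mitosis level was 475 CPM (other round 2 libraries 452 to 539, round 1 723 to 1263). Its myelin level was 44712 CPM, above the 42704 CPM of the highest other round 2 library. Its myeloid level, 4272 CPM, lay above round 1 (717 to 3927 CPM), and its hypothalamic level, 78.1 CPM, above the 36.1 CPM of the highest round 1 library.

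The 10 control libraries of batch 1 carry no round in their names. On the same scale their ERK response level ran from 630.1 to 779 CPM, all above the highest round 2 library, and their mitosis level ran from 407 to 1039 CPM, which spans both rounds. Their myelin level was 17241 to 30807 CPM and their myeloid level 922 to 3674 CPM. Batch 1 holds none of the libraries of either round, so batch and round cannot be told apart in these values.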
